A study of Mus musculus with 18 samples.

Results

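The genes of the cytosolic ribosomal proteins are 81 of the 25731 gene symbols counted in 18 mouse hearts. They were chosen by name: symbols made of Rpl or Rps and a number, with at most a letter a, x or l after it, and Rplp0, Rplp1, Rplp2 and Rpsa. By the subunit they belong to, 31 are of the small (40S) subunit, 47 of the large (60S) subunit and 3 of its stalk. The hearts were taken at day 7 from adult male wild-type C57BL/6 mice in 3 groups of 6: ischemia-reperfusion with decursin, a plant coumarin (IR+Decursin), ischemia-reperfusion (IR) and sham surgery (SHAM). Each library is the total RNA of 1 heart. The sources used here do not give the dose and route of decursin, the length of ischemia or the part of the heart taken. In the labels each of 3 batches matches 1 of the groups, so batch and treatment cannot be told apart.

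The cytosolic ribosome decodes messenger RNA on its 40S subunit and joins amino acids on its 60S subunit, and its proteins are made in nearly equal numbers because each is a fixed part of the particle. Their messengers are known to begin with a tract of pyrimidines, the terminal oligopyrimidine (TOP) tract, through which the kinase complex mTORC1 sets how well they are translated, while Myc and RNA polymerase I set how much ribosome is built. A few members have a paralogue limited to certain tissues, and striated muscle carries Rpl3l in place of much of its Rpl3.

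Libraries held 27525876 to 34974692 counts, and no member that was tested had fewer than 409 counts in any library. The tissue label was checked with cardiomyocyte genes: the 12 cardiomyocyte markers examined, such as Myh6 and Tnnt2, summed to 46802 to 101010 CPM (counts relative to the library size, scaled with the TMM factors of edgeR) in the 18 libraries. Several libraries stood apart. Xist, which is transcribed in females, exceeded 1000 counts in IR 3, IR 4 and IR+Decursin 2 although the labels give males, and the gene model Gm26917 took 7.54% of the counts of IR+Decursin 6 and 0.915% of those of IR 1. IR+Decursin 6 also lay near the SHAM libraries in its summed markers, at 1559 CPM for fibroblasts and 654 CPM for macrophages, against 1379 to 1613 CPM and 466 to 639 CPM in SHAM. Calls in named members that were lost without the libraries with Xist or without the 2 libraries highest in Gm26917 are given as such. In bulk tissue, fewer cells of a type and less RNA per cell cannot be told apart.

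Sequence bears on the members in 2 ways, through the starts of the genes and through copies that share their reads. RefSeq promoter windows (GRCm38.p6, 250 bases before to 50 after the start) were matched by symbol for 60 of the 81 members. A C followed by at least 7 bases that are each C or T was sought on the strand that reads as the messenger, within 50 bases before or after the start. It was found in 52 of the 60 (86.7%), against 32% of the 27025 genes with a window. Runs before the start, which lie outside the messenger as annotated, were counted too. CCGGAAG, the core that ETS factors bind, searched on both strands over 300 bases, was in 41.7% of members against 9.93% of all genes, and AAGATGGC, the core of YY1 sites, was in 8.33% against 3.19%. A match is a description of letters and not a site in use. Stretches from 60 bases before to 20 after the start follow for 6 members that changed, to show the sequence at their starts, with runs and CCGGAAG in capitals where they fall in the stretch. Rpl3l lies at chr17:24727766-24727845 (+), Rps27l at chr9:66946026-66946105 (+), Rpl10 at chrX:74270756-74270835 (+), Rpl12 at chr2:32961652-32961731 (+), Rps12 at chr10:23787190-23787269 (-) and Rps26 at chr10:128626487-128626566 (-).
Rpl3l: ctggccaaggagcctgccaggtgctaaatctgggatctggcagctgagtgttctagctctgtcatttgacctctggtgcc
Rps27l: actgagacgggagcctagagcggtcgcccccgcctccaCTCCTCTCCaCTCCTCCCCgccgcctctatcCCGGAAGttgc
Rpl10: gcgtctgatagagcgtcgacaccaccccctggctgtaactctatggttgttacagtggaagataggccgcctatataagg
Rpl12: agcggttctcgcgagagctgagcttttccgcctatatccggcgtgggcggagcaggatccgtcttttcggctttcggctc
Rps12: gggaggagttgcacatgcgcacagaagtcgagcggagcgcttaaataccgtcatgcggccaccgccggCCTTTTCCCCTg
Rps26: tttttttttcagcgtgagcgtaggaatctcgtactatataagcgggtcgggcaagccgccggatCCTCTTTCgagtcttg
All 6 are among the 52 members with the run. Counting the first transcribed base as 1, the run begins past the printed stretch in Rpl3l (position 32), Rpl10 (position 42) and Rpl12 (position 40), and within it in Rps27l (before the start), Rps12 (position 9) and Rps26 (position 5).

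Ribosomal protein genes have many processed copies in the genome, and the sources used here do not give how reads that match more than 1 gene were handled. Of 79 members with transcripts in the reference annotation, the median member shared 35.9% of its 50-base stretches with transcripts of another gene, 26 shared over 50%, and Rpl35 of the 60S subunit shared the most at 95.1%. Rpl3 shared 67.1% with 26 other genes, none of them Rpl3l, and Rpl3l shared 0% with any gene. Values of single members other than Rpl3l can therefore hold reads of copies or lack reads lost to them.

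All but 2 of the members were expressed well above the filter for low counts in all 3 groups. Rpl39l, the paralogue of Rpl39 known from mouse germ cells, had 0 to 19 counts per library and Rpl32l 0 to 11, and both failed the filter, which left 79 members to test. On the deposited FPKM scale, which divides by gene length, the mean level over 18 libraries ran from 20.4 FPKM in Rps27l to 942 FPKM in the stalk gene Rplp1, with a median member at 297 FPKM. Rplp1, Rps29 of the 40S subunit (935 FPKM) and Rpl41, the shortest ribosomal protein (845 FPKM), were highest. Rps27l, Rpl6l (21.8 FPKM) and Rpl21 (38.1 FPKM) were lowest. The authors' length for Rps27l is 2748 bases against 346 for its paralogue Rps27, so part of such differences between genes depends on the lengths chosen.

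The members together took a larger share of the counts in IR hearts than in SHAM hearts. Their share of the library was 2.30 to 3.08% in IR, with a median of 2.43%, against 1.56 to 2.08% in SHAM, with a median of 1.73%. In IR+Decursin it was 1.58 to 2.23%, with a median of 2.13%. Every IR library lay above every SHAM and every IR+Decursin library. Scaled with TMM factors, which correct for the make-up of a library, the members summed to 19772 ± 1075 CPM in IR+Decursin, 22721 ± 1698 CPM in IR and 19774 ± 1969 CPM in SHAM (SD, n = 6 each). On this scale SHAM 3, at 23047 CPM, overlapped the IR libraries at 21137 to 25729 CPM. The 40S sum was 0.782 ± 0.0136 of the 60S sum in IR+Decursin, 0.782 ± 0.00602 in IR and 0.787 ± 0.0158 in SHAM, and the groups overlapped in this ratio.

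**Figure D1:**
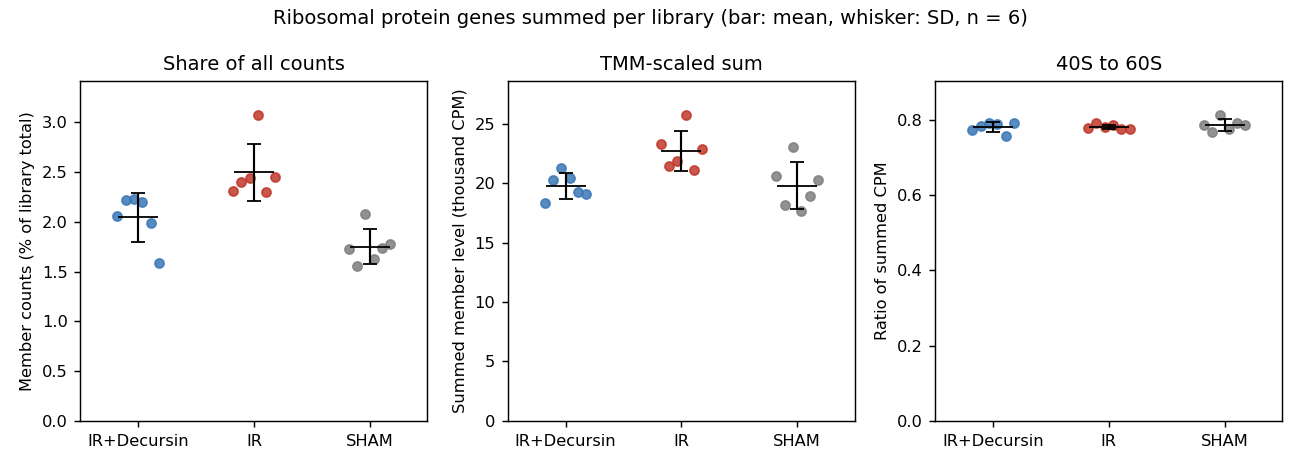
Share of all counts taken by the 81 ribosomal protein genes (left, % of library total), their TMM-scaled sum (middle, in units of 1000 CPM) and the ratio of summed 40S to summed 60S genes (right), per library in IR+Decursin, IR and SHAM. Points are libraries, horizontal bars means and whiskers SD (n = 6); the share is 2.30 to 3.08% in IR and 1.56 to 2.08% in SHAM, and the ratio stays near 0.78 in each group.

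In IR hearts compared with SHAM hearts, ribosomal protein genes of both subunits rose by small amounts, Rpl3 rose the most, and the muscle form Rpl3l fell. Of 79 members tested, 41 rose and 2 fell at a false discovery rate under 0.05 in edgeR's quasi-likelihood test, where 25.2% of all 15088 genes rose and 21.7% fell. Of the rises, 17 were among 31 genes of the 40S subunit, 22 among 45 of the 60S subunit and 2 among the 3 of the stalk. The median log2 fold change of members was 0.18 and that of all genes -0.00, and 73 members stood above 0, as did 49.9% of all genes. With libraries scaled by their totals alone, which moves the median of all genes to 0.31 and the share of higher among called genes to 86.9% from 53.8%, 75 members rose (46.4% of all genes did), and their median stood 0.19 above that of all genes under either scaling. Every IR library stood above every SHAM library in 10 members (12.7%, against 15.4% of all genes) and below in Rpl3l alone (1.27%, against 11.6%). The groups thus separated in members no more often than in all genes.

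The size of that count depended on the libraries. Without the 3 libraries with Xist 17 members rose, or 21.5% of those tested against 21.0% of all genes, so the share of called members was then at the background. Without the 2 libraries highest in Gm26917 26 rose (32.9% against 23.8% of all genes). Without a single library the count was lowest at 25 without IR 1 (31.6% against 23.5%) and 27 without SHAM 4 (34.2% against 23.9%), and highest at 48 without SHAM 3 (60.8% against 24.1%). The members' median was 0.16 without the libraries with Xist, where that of all genes was 0.00. In all 18 fits that leave out 1 library, 24 members rose and Rpl3l fell. The share of all genes called in all 18 fits was not determined, so this count has no background beside it. Relative to the SHAM mean, the median member deviated by 0.09 (IR 5) to 0.40 (IR 4) on the log2 scale in IR libraries, and by -0.15 (SHAM 4) to 0.24 (SHAM 3) in SHAM libraries. SHAM 3 had all 79 members above the SHAM mean.

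**Figure D2:**
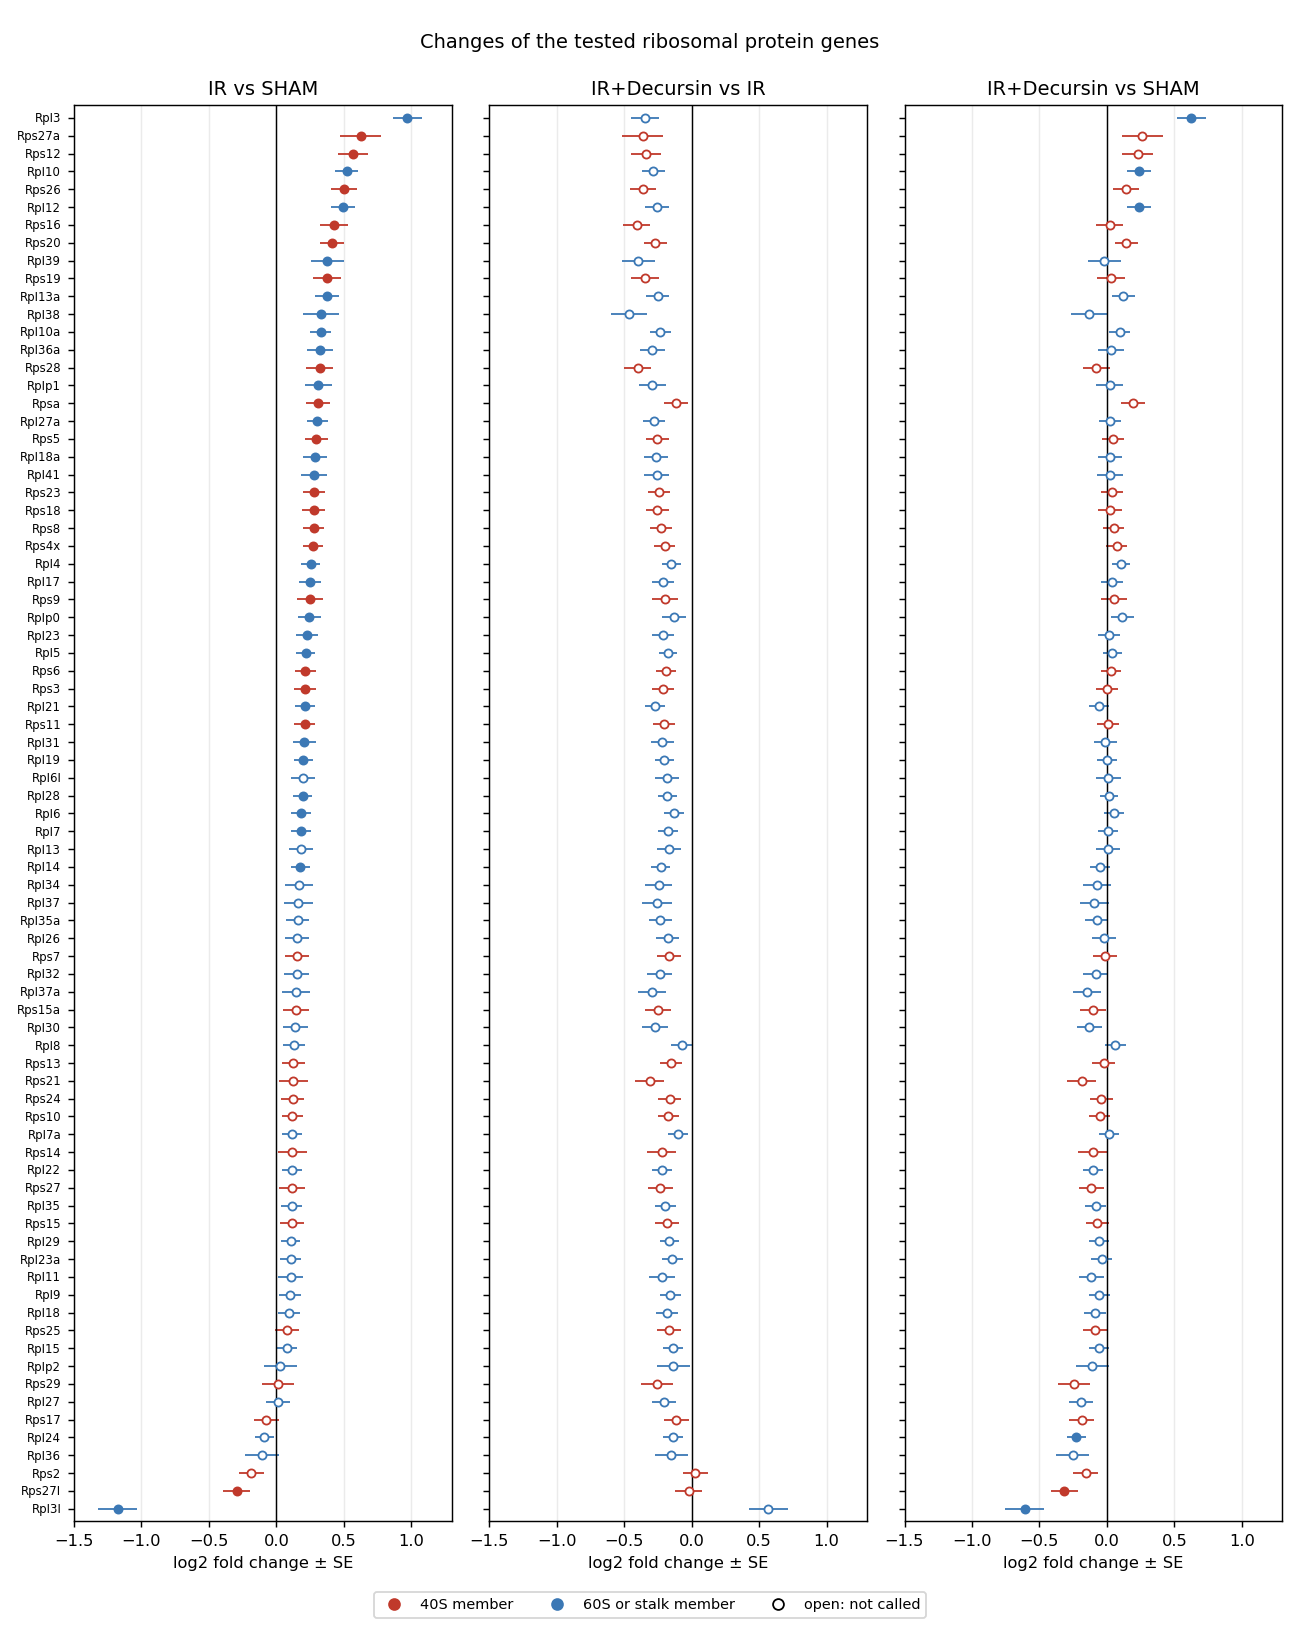
Log2 fold change ± SE of the 79 tested members (rows, ordered by IR against SHAM) in IR against SHAM, IR+Decursin against IR and IR+Decursin against SHAM; filled points passed a false discovery rate of 0.05, and colours mark the subunit. In IR against SHAM 73 points lie above 0 with Rpl3 and Rpl3l at the ends, and in IR+Decursin against IR 77 lie below 0 with none filled.

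Rpl3, which lies beside the peptidyl transferase centre of the 60S subunit, and Rpl3l, its form in heart and skeletal muscle, moved apart. Rpl3 had 352 to 469 CPM in IR, with a median of 379, against 158 to 224 CPM in SHAM, with a median of 207. In IR+Decursin it had 226 to 345 CPM, with a median of 318. No IR library overlapped a SHAM library, and every IR+Decursin library lay below every IR library and above every SHAM library, with the lowest, IR+Decursin 6, close to the highest SHAM library. Rpl3 rose in IR (log2 fold change 0.97 ± 0.11 SE, edgeR adjusted p = 4.01e-06).

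Rpl3l had 74.3 to 116 CPM in IR, with a median of 94.8, against 179 to 243 CPM in SHAM, with a median of 223. In IR+Decursin it had 97.2 to 181 CPM, with a median of 142. The IR and SHAM libraries did not overlap, and IR+Decursin spanned the gap between them, with IR+Decursin 1 and 4 within the range of the IR libraries and IR+Decursin 6 within that of the SHAM libraries. Rpl3l fell in IR (-1.18 ± 0.15, edgeR adjusted p = 7.12e-06). Both changes held without the libraries with Xist, at 0.90 for Rpl3 and -1.06 for Rpl3l.

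By the deposited FPKM, Rpl3l made up 24.6 ± 6.36% of the sum of Rpl3 and Rpl3l in IR+Decursin, 14.8 ± 3.57% in IR and 43.3 ± 5.28% in SHAM (SD, n = 6 each). The absolute share depends on the gene lengths used and on how reads that Rpl3 shares with copies were counted. Every SHAM library exceeded every other library in this share, from 36.9% upward, with IR+Decursin 6 closest at 36.2%. Markers of cardiomyocytes moved the same way: all 12 fell in IR against SHAM (21.7% of all genes did). Their sum was 46802 to 64235 CPM in IR against 86663 to 101010 CPM in SHAM. Per 1000 counts of these markers Rpl3l had 1.96 ± 0.163 counts in IR+Decursin, 1.70 ± 0.229 in IR and 2.33 ± 0.314 in SHAM. The part of cell make-up in the change was not tested.

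**Figure D3:**
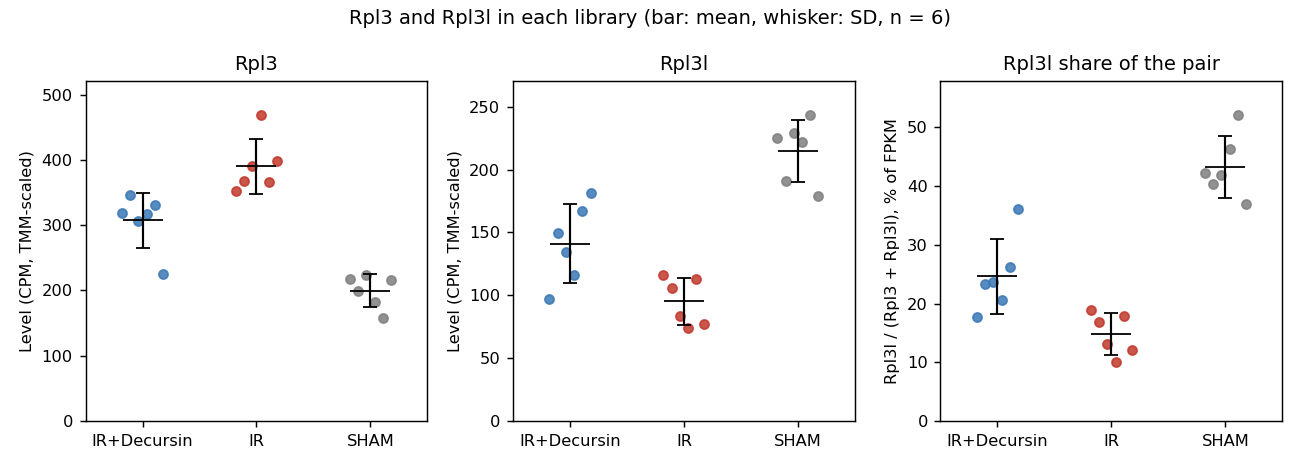
Levels of Rpl3 (left) and Rpl3l (middle) in CPM, and Rpl3l as a percentage of the FPKM of the pair (right), per library in IR+Decursin, IR and SHAM. Points are libraries, bars means and whiskers SD (n = 6); Rpl3l averages 14.8% of the pair in IR and 43.3% in SHAM, with IR+Decursin between at 24.6%.

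Among the other 40S members the largest rises in IR were in Rps27a, Rps12 and Rps26. Rps27a, made as a fusion with ubiquitin, had 199 to 254 CPM in IR, with a median of 222, against 91.5 to 213 CPM in SHAM, with a median of 142. SHAM 3 reached the range of the IR libraries, and the SHAM libraries spread widely for this gene (0.62 ± 0.15, edgeR adjusted p = 0.00209). Rps12, a protein of the 40S head, had 152 to 210 CPM in IR, with a median of 178, against 98.5 to 151 CPM in SHAM, with a median of 118. Rps26, at the exit of the messenger channel, had 175 to 255 CPM in IR, with a median of 197, against 133 to 168 CPM in SHAM, with a median of 147. For Rps12 and Rps26 the IR libraries all lay above the SHAM libraries, and the changes were 0.57 ± 0.11 (edgeR adjusted p = 0.000362) and 0.50 ± 0.10 (edgeR adjusted p = 0.000322).

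Smaller rises ran through the 40S panel. Rps19, the gene most often mutated in human Diamond-Blackfan anaemia, rose by 0.38, Rpsa, which also binds laminin, by 0.31, Rps18, a common reference gene, by 0.28 and Rps4x, on the X chromosome, by 0.27. Rps6, the substrate of the S6 kinases, averaged 349 ± 29.5 CPM in IR and 301 ± 27.2 CPM in SHAM (SD, n = 6 each) and rose by 0.22 (edgeR adjusted p = 0.0230). Rps18 (adjusted p = 0.0576) and Rps6 (adjusted p = 0.0535) were not called in edgeR when the Xist libraries were dropped, nor was Rps6 without the 2 libraries highest in Gm26917 (adjusted p = 0.0675) or without SHAM 4, IR 1 or IR 6. Rps2, near the messenger entry of the subunit, stood at -0.18 ± 0.09 (0.13 with library totals alone) and did not pass (edgeR adjusted p = 0.103). Rps29 at 0.01 ± 0.12 and Rps27 at 0.12 ± 0.09 did not pass either.

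Rps27l, the paralogue of Rps27 known as a target of p53, was the other member that fell. It had 43.4 to 58.5 CPM in IR, with a median of 53.0, against 55.5 to 84.2 CPM in SHAM, with a median of 62.0. The groups overlapped, and SHAM 3 stood highest. The fall of -0.29 ± 0.10 (edgeR adjusted p = 0.0197) was not called without SHAM 3 (adjusted p = 0.0624), nor when the Xist libraries were dropped (adjusted p = 0.0501), and its sign turned to 0.02 with library totals alone.

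Among the 60S members Rpl10 and Rpl12 followed Rpl3. Rpl10, which completes the 60S subunit near the tRNA sites, had 376 to 500 CPM in IR, with a median of 423, against 250 to 343 CPM in SHAM, with a median of 296. Rpl12, at the base of the stalk, had 228 to 293 CPM in IR, with a median of 244, against 158 to 215 CPM in SHAM, with a median of 173. In both genes all IR libraries lay above all SHAM libraries, and the changes were 0.52 ± 0.09 (edgeR adjusted p = 7.65e-05) and 0.50 ± 0.09 (edgeR adjusted p = 0.000143). Rpl39 at the peptide exit tunnel rose by 0.38 and Rpl13a by 0.37. Rpl5, which with Rpl11 can hold back the p53 inhibitor Mdm2, rose by 0.22 ± 0.07 (edgeR adjusted p = 0.0134), and Rpl11 itself was 0.11 ± 0.09 and did not pass (edgeR adjusted p = 0.376). Rpl39 and Rpl5 were not called without the libraries with Xist. Rpl22 at 0.12 and Rpl32 at 0.15 did not pass.

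The stalk, which recruits the elongation factors, changed in part. Rplp0, its base, averaged 924 ± 56.8 CPM in IR and 780 ± 80.3 CPM in SHAM and rose by 0.24 ± 0.09 (edgeR adjusted p = 0.0258). Rplp1 averaged 497 ± 53.3 CPM in IR and 401 ± 54.6 CPM in SHAM and rose by 0.31 ± 0.10 (edgeR adjusted p = 0.0141). Rplp2, its partner in the dimer, averaged 148 ± 23.9 CPM in IR and 145 ± 27.1 CPM in SHAM and did not pass (0.03 ± 0.12, edgeR adjusted p = 0.863). The calls of Rplp0 and Rplp1 were lost in edgeR when the Xist libraries were dropped (adjusted p = 0.0644 for Rplp0 and 0.0744 for Rplp1), without the 2 libraries highest in Gm26917 (0.0653 and 0.0521) and without IR 1 alone. The call of Rplp0 was also lost without SHAM 4 or SHAM 5, with no filter on low counts and in a fit blocked on replicate number (adjusted p = 0.0512).

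Most ribosomal protein genes had slightly lower estimated RNA levels in IR hearts with decursin than in IR hearts, but no member passed the test. edgeR called 0 of the 79 members and 0% of all genes. Limma with voom weights and limma-trend on log2(FPKM + 1) also called 0 members, whereas DESeq2 called 1 member higher (1.27% of members against 2.21% of all genes) and 10 lower (12.7% against 0.55%). At an unadjusted p under 0.05, 54 members were lower (7.87% of all genes) and only Rpl3l was higher (10.1% of all genes). The fold change was below 0 for 77 members, against 53.0% of all genes, with a median of -0.21 for members and -0.02 for all genes. The count of lower members at an unadjusted p under 0.05 was 22 without the libraries with Xist. It was 36 without IR 4, the library with the highest member levels. The share of all genes at that threshold was not determined in these fits. The members' median was -0.18 without the libraries with Xist and -0.17 without IR 4, and that of all genes -0.01 in both.

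**Figure D4:**
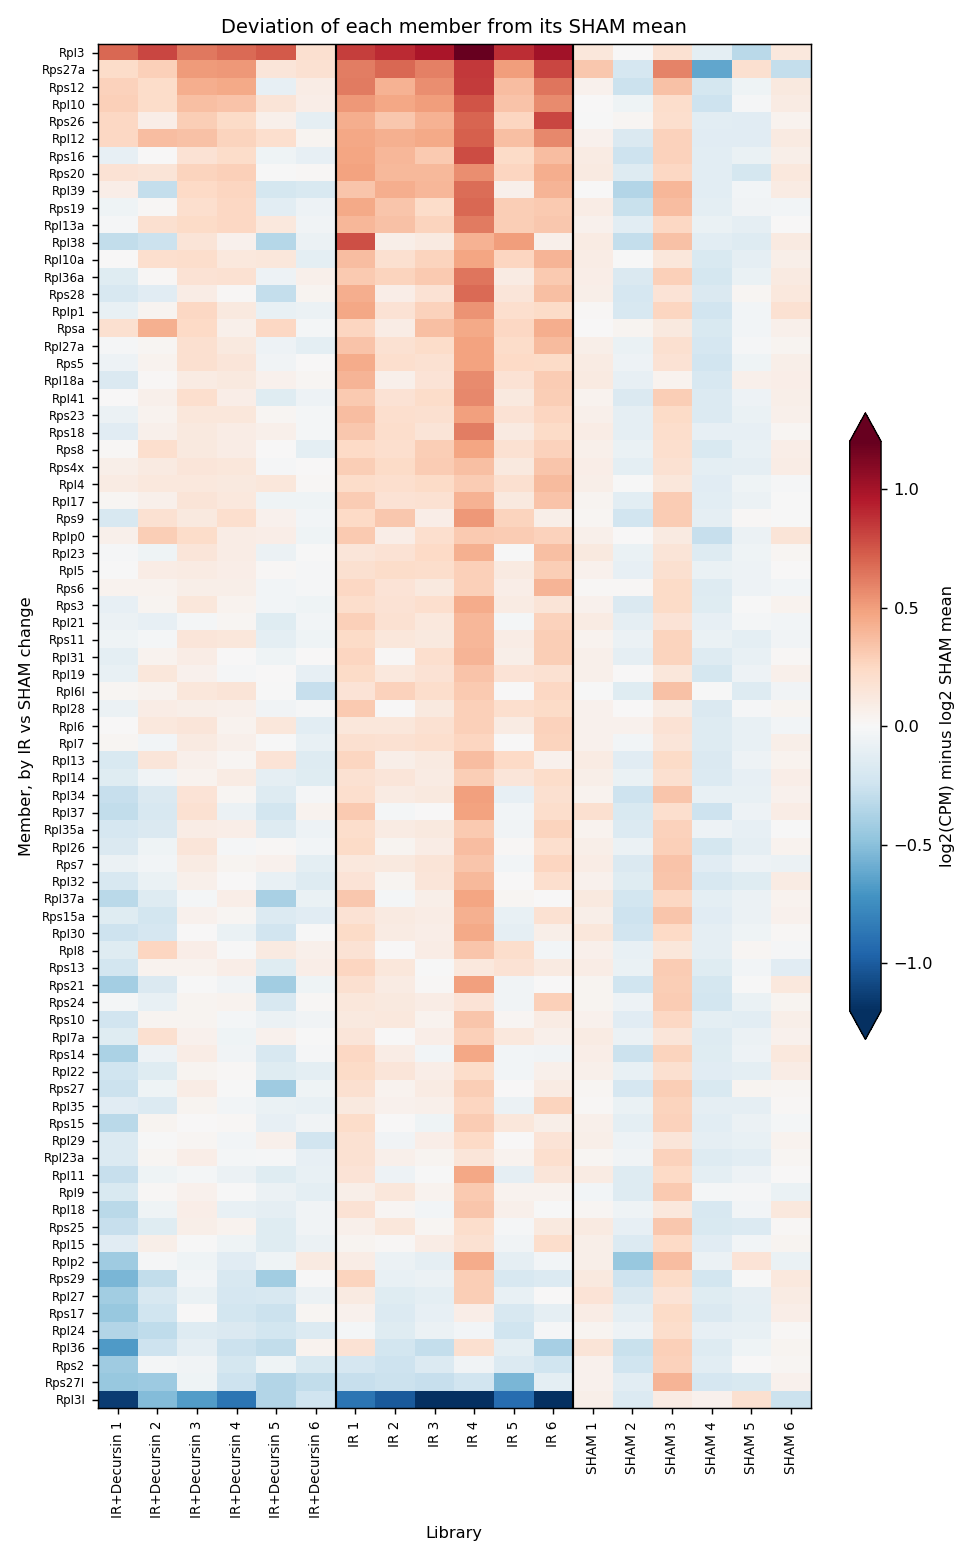
Log2 deviation of each tested member (rows, ordered by IR against SHAM) from its SHAM mean in the 18 libraries, with IR+Decursin left, IR in the middle and SHAM right. Red is higher and blue lower; the median member is highest in IR 4 (0.40), is also raised in SHAM 3 (0.24), and lies between -0.14 and 0.09 in IR+Decursin.

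The 3 members with the smallest p on the lower side were Rps16, Rps28 and Rpl21. Rps16, a 40S head protein near the P site, had 160 to 201 CPM in IR+Decursin, with a median of 169, against 202 to 295 CPM in IR, with a median of 224. All IR+Decursin libraries lay below all IR libraries, as in 6 other members (Rpl13a, Rpl3, Rpl4, Rpl5, Rps23 and Rps6), 7 in all against 0.245% of all genes. Rps28, also of the 40S subunit, had 82.6 to 107 CPM in IR+Decursin, with a median of 96.4, against 106 to 161 CPM in IR, with a median of 121, an overlap at the edge. The differences were -0.41 ± 0.10 for Rps16 (edgeR adjusted p = 0.0930), -0.40 ± 0.10 for Rps28 (adjusted p = 0.0941) and -0.27 ± 0.07 for Rpl21 (adjusted p = 0.0991). On the higher side stood Rpl3l at 0.57 ± 0.14 (edgeR adjusted p = 0.0959) and Rps2 at 0.03 ± 0.09 (adjusted p = 0.897; -0.06 with library totals alone).

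Without IR+Decursin 1, edgeR called Rpl3l higher (0.65, adjusted p = 0.0146) and 4 members lower, namely Rps26 (-0.38, adjusted p = 0.0363), Rps16 (-0.38, adjusted p = 0.0399), Rps28 (-0.38, adjusted p = 0.0412) and Rpl21 (-0.27, adjusted p = 0.0435). All genes called then numbered 976 in place of 0, with 4.58% of genes higher and 1.84% lower, against 1.27% and 5.06% of members. DESeq2 with all libraries called Rpl3l (adjusted p = 0.0123), the same 4 members and Rpl10, Rpl14, Rpl27a, Rpl3, Rpl38 and Rps19. Macrophage markers were lower in IR+Decursin at 654 to 1938 CPM, against 1456 to 3033 CPM in IR, and cardiomyocyte markers higher at 54029 to 89803 CPM, against 46802 to 64235 CPM. All 12 macrophage markers lay below 0 and all 12 cardiomyocyte markers above 0 in this comparison, and none of them was called. Their part in the member differences was not tested.

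Between IR+Decursin and SHAM hearts 73 of the 79 members did not pass the test. The median was -0.01, and 38 members stood above 0 and 41 below. Above 0 stood 49.8% of all genes. Rpl3, Rpl12 and Rpl10 rose (17.5% of all genes did), and Rpl3l, Rps27l and Rpl24 fell (11.8% of all genes did). The comparison shares its 6 IR+Decursin libraries with the one against IR and its 6 SHAM libraries with the one of IR against SHAM. With library totals alone the members' median was 0.21 and that of all genes 0.22. There 22 members rose (27.8%, against 31.7% of all genes) and 1 fell (1.27%, against 2.5%).

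Rpl3 rose by 0.62 ± 0.11 in IR+Decursin against SHAM (edgeR adjusted p = 0.000541), or by 0.70 without IR+Decursin 6, and was the only member whose groups did not overlap on the higher side (4.44% of all genes). Rpl3l fell by 0.61 ± 0.14 (edgeR adjusted p = 0.00416), or by 0.70 without IR+Decursin 6, and these were the 2 members called in all 18 fits without 1 library. The values of IR against SHAM were 0.97 for Rpl3 and -1.18 for Rpl3l, and those of IR+Decursin against IR were -0.35 (edgeR adjusted p = 0.135) and 0.57.

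The other calls were narrower. Rpl10 averaged 352 ± 26.7 CPM in IR+Decursin and 298 ± 31.4 CPM in SHAM (0.24 ± 0.09, edgeR adjusted p = 0.0446), and Rpl12 averaged 211 ± 17.2 and 179 ± 22.5 CPM (0.24 ± 0.09, edgeR adjusted p = 0.0468). Rpl10 was not called in 12 and Rpl12 not in 13 of the 18 fits without 1 library, and neither without the libraries with Xist. Rpl24, a 60S protein that bridges the subunits, had 221 to 253 CPM in IR+Decursin, with a median of 246, against 262 to 326 CPM in SHAM, with a median of 277. Its groups did not overlap (2.90% of all genes lay wholly lower), and it fell by 0.23 ± 0.07 (edgeR adjusted p = 0.0216). That call was lost when the Xist libraries were dropped (edgeR adjusted p = 0.0611), without SHAM 3 or IR+Decursin 1, with no filter on low counts, and with library totals alone (-0.01, adjusted p = 0.955) or FPKM. Rps27l fell by 0.32 ± 0.10 (edgeR adjusted p = 0.0218), and was not called when the Xist libraries (adjusted p = 0.0649) or IR+Decursin 1 (adjusted p = 0.0514) were dropped. Its call was also lost without SHAM 3 or IR+Decursin 2, and with library totals alone or FPKM.

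Genes of the translation machinery outside the naming rule gave counts in both directions in IR against SHAM, where 25.2% of all genes rose and 21.7% fell. Of 8 further ribosomal protein genes that the naming rule leaves out, 2 rose and 1 fell: Rack1, a 40S scaffold (0.32), and Fau, whose product yields a 40S protein (0.35), rose, and Rpl7l1 fell (-0.16, but 0.14 with library totals alone). Mitochondrial ribosomal proteins, which serve the separate ribosome of that organelle, went the other way, as 0 of 75 rose and 71 fell, with a median of -0.59. They summed to 3598 ± 478 CPM in IR+Decursin, 3025 ± 229 CPM in IR and 4629 ± 247 CPM in SHAM (SD, n = 6 each). The 13 genes of the mitochondrial genome took 24.6 ± 2.21% of counts in IR+Decursin, 24.4 ± 3.06% in IR and 31.1 ± 1.56% in SHAM.

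Genes that build ribosomes were called in small numbers in IR against SHAM, where 25.2% of all genes rose and 21.7% fell. Of 55 ribosome biogenesis genes 3 rose and 8 fell (median -0.03), with Npm1, a nucleolar chaperone, at 0.42 and Emg1, an rRNA methyltransferase, at -0.41. Nop10 of the pseudouridylation complex fell by 0.43, and Heatr3, which imports Rpl5, by 0.28. Of 15 genes of RNA polymerase I and its factors 1 rose and 2 fell, namely Ubtf (0.17), Polr1e (-0.46) and the initiation factor gene Rrn3 (-0.27). Heatr3 and Rrn3 stood at 0.03 with library totals alone, where the falls of Emg1, Nop10 and Polr1e were not called. Polr1e was also not called without SHAM 6. The rise of Ubtf was lost in 9 of the 18 fits without 1 library, without the libraries with Xist, without the 2 libraries highest in Gm26917 and in the fit blocked on replicate number.

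Other parts of translation gave mixed counts in this comparison, against 25.2% of all genes that rose and 21.7% that fell. Of 12 other genes whose messengers carry a TOP tract 7 rose and 0 fell (median 0.35), among them Vim (1.35), the host gene of small nucleolar RNAs Gas5 (0.53), Hnrnpa1 (0.43) and Npm1. Of 10 elongation factor genes 3 rose and 1 fell. Eef1a1, also a TOP gene, averaged 2246 ± 269 CPM in IR and 1042 ± 97.3 CPM in SHAM and rose by 1.11 ± 0.13 (edgeR adjusted p = 4.9e-06). Its muscle and neuron form Eef1a2 averaged 703 ± 127 CPM in IR and 1052 ± 106 CPM in SHAM and fell by 0.58 ± 0.17 (edgeR adjusted p = 0.00694). Of 38 initiation factor genes 4 rose and 11 fell, with Pabpc1, the poly(A)-binding protein, at 1.19, and the cap-binding Eif4e at -0.52 and Eif2b4 at -0.57.

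Of 30 genes of mTORC1 and Myc control 6 rose and 6 fell, where 25.2% of all genes rose and 21.7% fell. These counts were not above the shares over all genes. Myc had 6.05 to 17.3 CPM in IR, with a median of 9.32, against 1.67 to 3.87 CPM in SHAM, with a median of 2.34, and the groups did not overlap (2.06 ± 0.31, edgeR adjusted p = 4.28e-05). Mxd3 of the same list rose by 2.16 (edgeR adjusted p = 0.000725). The mTORC1 inhibitor genes went both ways, with Sesn2 at 1.10 and Sesn1 at -0.57. Of 12 genes of ribosome rescue and quality control 2 rose and 3 fell, with Ascc2 at 0.22, the rescue factor gene Hbs1l at -0.48, the ribotoxic stress kinase gene Map3k20 at -0.52 and Rchy1 at -0.19 (0.11 with library totals alone). Ascc2, Rchy1 and Rpl7l1 were not called without the libraries with Xist, and the falls of Eef1a2, Sesn1 and Hbs1l were not called with library totals alone.

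**Figure D5:**
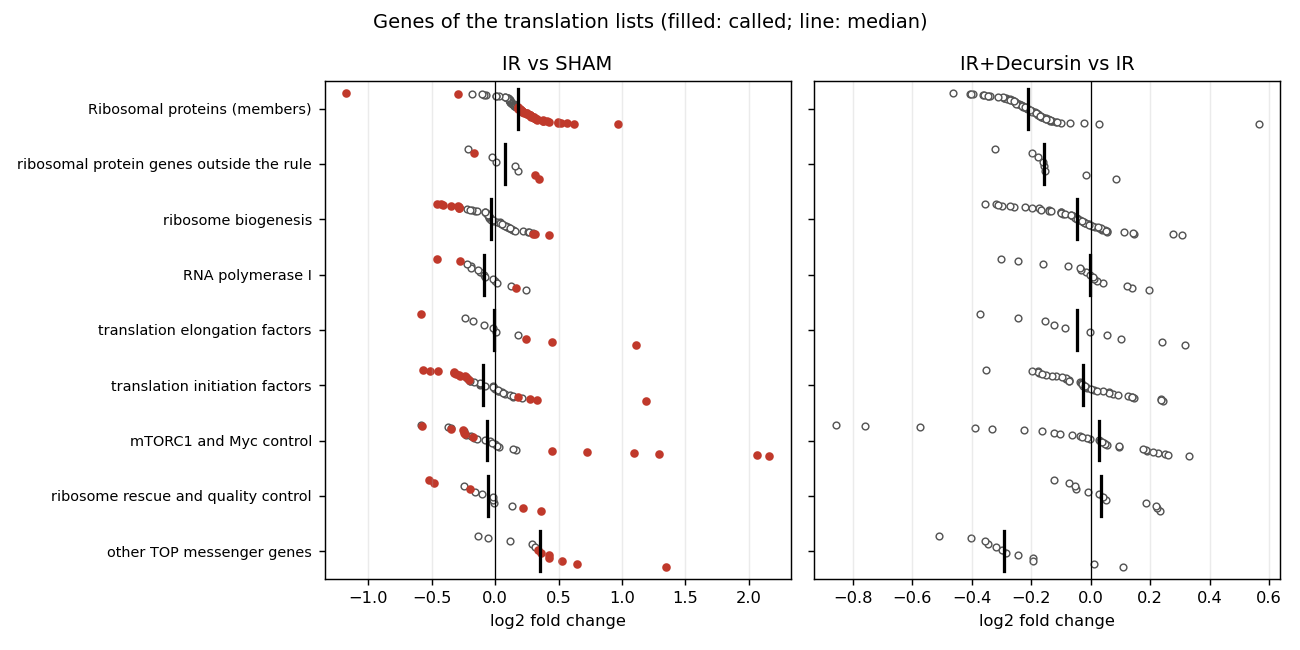
Log2 fold changes of the tested members and of 8 lists of translation genes in IR against SHAM (left) and IR+Decursin against IR (right). Each point is a gene, filled points passed a false discovery rate of 0.05, and vertical lines are medians; on the left the members' median is 0.18, that of the other TOP genes 0.35 and that of the ribosome biogenesis genes -0.03, and on the right no point is filled.

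In IR+Decursin against IR no gene of these lists was called, as 0% of all genes were. The medians were -0.29 for the other TOP genes, -0.05 for ribosome biogenesis genes, -0.03 for initiation factors and 0.23 for mitochondrial ribosomal proteins. At an unadjusted edgeR p under 0.05, 7.87% of all genes were lower and 10.1% higher. By that threshold 6 of 12 other TOP genes were lower and 0 higher. Of 55 biogenesis genes 6 were lower and 2 higher, of 38 initiation factors 5 and 3, and of 75 mitochondrial ribosomal proteins 1 and 47. In IR against SHAM, where the members rose, all 12 macrophage markers, all 10 fibroblast markers and all 8 markers of proliferating cells rose too, the macrophage sum being 1456 to 3033 CPM in IR against 466 to 639 CPM in SHAM. Among markers of other cells, 3 of 6 neutrophil, 6 of 6 T and NK cell, 2 of 7 B and plasma cell and 3 of 6 erythroid genes rose, and 2 of 8 endothelial and 4 of 8 smooth muscle genes fell. Of all genes 25.2% rose and 21.7% fell in this comparison. No marker of these lists or of the cardiomyocyte list was at 0 in a whole group. Their part in the members' rise was not tested.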

How the data were processed

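RNA-seq of 18 hearts was used, 6 per group, with groups and replicate numbers from the labels. The deposited tables hold raw counts and FPKM for the same gene symbols. The tools named are fastp, HISAT2 and HTSeq, with the build GRCm39, per the submitters' processing notes. The sources used here do not give versions, annotation, strandedness or how multi-mapped reads were treated. The deposited FPKM equal counts divided by gene length and library total (347198 values, largest relative deviation 1.58e-09).

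The count test was edgeR 4.0.16 (R 4.3.3): filterByExpr by group (15088 genes), TMM factors, 1 robust quasi-likelihood fit of all libraries with 15 residual degrees of freedom, two-sided tests and Benjamini-Hochberg adjustment over all genes tested. The test was checked on simulated data. CPM are TMM-scaled. Alternatives were DESeq2 1.42.0, limma 3.58.1 (voom with quality weights, and limma-trend on FPKM), other scalings and filters, a block on replicate number, and fits with libraries left out. Libraries of the same number were treated as unpaired. Their correlations, with group means removed, ran from -0.52 to 0.406, and correlations of single libraries cannot exclude a pairing. No 2 replicates agreed within sampling noise (chi-square per degree of freedom at least 14.4).

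Promoter sequences are from RefSeq (GRCm38.p6), an older build than the counts, and shared stretches are from an annotation of that build, so both were joined by symbol only. Named are paralogue pairs, the 5 largest called rises and falls per comparison (the 3 smallest p where none was called), a panel of 11 members, the members with the 3 highest and 3 lowest FPKM, and up to 4 genes per list. The members and lists were chosen with earlier results of these data known. The 6 further members whose groups did not overlap between IR+Decursin and IR, and those called there by other settings, were named after their values were seen.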

Additional observations from a re-analysis of the deposited data

Results flagged for a closer look

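Over 35 measures (the named members in CPM, and sums or ratios per library) and 3 groups, 105 sets of 6 libraries were searched for a library whose gap to its nearest neighbour exceeded Dixon's 95% critical share of the range of the set. Chance gives about 1 in 20 sets, and 6 were found. IR 4 stood highest among IR libraries in the members' share of counts, at 3.08% with the next at 2.45%, in Rpl13a at 542 CPM with the next at 465 CPM, and in Rplp2 at 194 CPM with the next at 152 CPM. SHAM 3 stood highest among SHAM libraries in Rps27l at 84.2 CPM, with the next at 66.1 CPM, and in Rpl6l at 24.5 CPM, with the next at 19.2 CPM. IR+Decursin 6 stood lowest among IR+Decursin libraries in Rpl3 at 226 CPM, with the next at 306 CPM.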

How the results depend on the processing

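In IR against SHAM, Rpl3 and Rpl3l kept direction and call in all 35 alternatives run. The count of rises (41) was 75 with library totals alone and with 3 forms of limma-trend on FPKM, where 1 member fell in place of 2. In those fits 45.7 to 49.1% of all genes rose and 7.01 to 8.9% fell. The count was 17 (21.5% of members against 21.0% of all genes) without the libraries with Xist, with 1 fall (1.27% against 16.9%). Without the 2 libraries highest in Gm26917 it was 26 (32.9% against 23.8%). When single libraries were left out, 25 to 48 members rose (23.4 to 25.4% of all genes) and 1 to 3 fell (19.8 to 23.3% of all genes). In those 4 settings without TMM factors 6 named genes that were called in one of the fits compared changed sign: Rps27l (0.0150 with totals, 0.0207 to 0.0218 with FPKM), Rpl24 (0.22), Rpl7l1 (0.14 or 0.15), Heatr3 (0.0264, 0.0222 and 0.0244), Rrn3 (0.0348, 0.0312 and 0.0335) and Rchy1 (0.11). Members below 0, called or not, numbered 1 there in place of 6, Rps2 among those that turned. The median of all genes moved too, to between 0.17 and 0.31.

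In IR+Decursin against IR, the counts of 0 became 1 higher and 10 lower with DESeq2 (417 genes in all) and ran to 1 higher and 4 lower (0 to 976 genes in all) when single libraries were left out. In IR+Decursin against SHAM, 3 rises became 22 (library totals), 19 or 20 (limma-trend on FPKM) with 1 fall each. In those fits 26.1 to 31.7% of all genes rose and 2.5 to 3.29% fell. There was 1 rise with RLE or upper-quartile factors, with scaling without mitochondrial and haemoglobin genes, or with no low-count filter. In those settings 9.56 to 17.3% of all genes rose. Without the libraries with Xist it was 1 rise (1.27% of members, against 15.4% of all genes) and 1 fall (1.27% against 8.9%). Without the libraries highest in Gm26917 7 members fell (8.86% against 16.3%). Single libraries left out gave 1 to 5 rises and 1 to 3 falls, where 14.3 to 19.5% of all genes rose and 8.51 to 14.1% fell. The cause was not tested.

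A block on replicate number gave 32 rises in IR against SHAM (40.5% of members, against 23.8% of all genes). It gave 2 falls there (2.53% against 20.7%). In IR+Decursin against SHAM 1 member rose (1.27% against 15.8%) and 3 fell (3.8% against 9.87%). The main fit treated the animals as unpaired.

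Depth limits little here, since tested members had at least 409 counts per library. The spread between 6 animals, batches that equal groups, reads shared with copies, and library scaling set the limits for changes of this size.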
